A study of Homo sapiens with 14 samples.

Results

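The nuclear lamina genes examined here were LMNA, LMNB1, LMNB2, LBR, TMPO, EMD and BANF1. These 7 genes were found by their symbols among the 62703 gene rows of the count table, of which 23157 had a count in at least 1 library, and all 7 passed the low-count filter. The group was chosen from the response to treatment, because LBR was already known to be lower in treated LNCaP cells and LMNB2 to be lower in treated cells of both replicated lines. The responses of the members, and the difference between the lines in those responses, are therefore given as a description without a test. The level in untreated LNCaP against untreated 22Rv1 cells was not used in that choice and was tested, although it shares the DMSO libraries with the treatment comparisons.

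3′ tag RNA libraries (BRB-seq, in which samples are barcoded and pooled before the ends of their transcripts are sequenced) were made from 3 human prostate cancer cell lines. LNCaP is androgen dependent and sensitive to the antiandrogen drug enzalutamide, 22Rv1 responds to androgen but resists enzalutamide, and PC3 is insensitive to enzalutamide. Each line received SEL120-34A, which inhibits CDK8 and CDK19, the kinases of the Mediator complex, at 1.5 µM for 3 days, or the solvent DMSO for the same time. LNCaP and 22Rv1 had 3 libraries per arm and PC3 had 1 library per arm, and each line is a single established model. The study's methods describe its experiments in general as done in biological replicates, but the labels do not say which libraries came from separate cultures. The p-values measure the spread between these libraries.

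Totals ranged from 246063 to 909176 counts per library. In LNCaP they were 412881 to 759548 for DMSO and 291056 to 519928 for SEL120-34A, and in 22Rv1 they were 476455 to 777207 and 246063 to 368778. Luminal markers matched the line labels in part. KLK3, which encodes prostate-specific antigen, was at 1218 ± 167 CPM (counts scaled to a common library size; mean ± SD, n = 3) in LNCaP DMSO, 20.4 ± 9.97 in 22Rv1 DMSO (n = 3) and 7.62 in PC3 DMSO (n = 1). TMPRSS2, a luminal protease gene, was low in 22Rv1 DMSO, at 6.24 ± 4.32 CPM.

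The nuclear lamina is a meshwork of intermediate filaments beneath the inner nuclear membrane. Lamins A and C, both encoded by LMNA, accumulate in differentiated and mechanically stressed cells, whereas the B-type lamins encoded by LMNB1 and LMNB2 are farnesylated and stay at the membrane. LBR, the lamin B receptor, tethers heterochromatin to the membrane and also carries a sterol C14 reductase activity used in cholesterol synthesis. TMPO encodes the lamina-associated polypeptide 2 proteins and EMD encodes emerin, both of which have a LEM domain that binds barrier-to-autointegration factor, the DNA-bridging protein encoded by BANF1. Loss of lamin B1 is a widely used sign of cellular senescence.

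The members lie on 6 chromosomes (GRCh38, GENCODE release 44, gene bodies including exons, introns and untranslated regions). LMNA (ENSG00000160789.24) spans chr1:156082573-156140081 on the plus strand and LBR (ENSG00000143815.15) spans chr1:225401502-225428925 on the minus strand. LMNB1 (ENSG00000113368.12) spans chr5:126776623-126837020 on the plus strand. LMNB2 (ENSG00000176619.13) spans chr19:2427638-2456959 on the minus strand. TMPO (ENSG00000120802.14) spans chr12:98515579-98550351, BANF1 (ENSG00000175334.8) spans chr11:66002228-66004149 and EMD (ENSG00000102119.12) spans chrX:154379273-154381574, all on the plus strand. Counts were summed per gene, so lamin A cannot be told from lamin C, nor one lamina-associated polypeptide 2 isoform from another. TMPO has 5 annotated transcript ends more than 500 bases apart, LMNA, LMNB1 and LBR have 3, BANF1 has 2, and LMNB2 and EMD have 1. The antisense gene TMPO-AS1 overlaps TMPO and held 62 counts over all 14 libraries, against 953 for TMPO. The BANF1 pseudogenes BANF1P3 and BANF1P4 held 8 counts and 1 count.

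The promoters of LBR, LMNB2 and TMPO are shown because LBR had the lowest log2 fold change in treated LNCaP cells, TMPO had the lowest in treated 22Rv1 cells, and LMNB2 was past the threshold in both lines. Each sequence is the RefSeq strand-oriented window from 250 bases before to 50 bases after the annotated start (GRCh38.p14). The windows are chr1:225428772-225429071 (minus strand) for LBR, chr19:2456910-2457209 (minus strand) for LMNB2 and chr12:98515323-98515622 (plus strand) for TMPO. The RefSeq start of LBR lies 104 bases inside the GENCODE gene. Capitals mark matches on either strand to the cell cycle homology element (TTTGAA or TTCGAA), the CCAAT box, or an E2F site (TTTCCCGC, TTTGGCGC or TTTCGCGC).
LBR: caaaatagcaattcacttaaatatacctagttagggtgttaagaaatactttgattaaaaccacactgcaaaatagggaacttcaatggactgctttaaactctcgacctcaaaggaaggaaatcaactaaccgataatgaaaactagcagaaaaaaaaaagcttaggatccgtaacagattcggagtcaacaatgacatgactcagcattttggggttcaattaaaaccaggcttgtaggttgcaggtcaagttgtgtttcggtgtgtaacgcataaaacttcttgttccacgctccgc
LMNB2: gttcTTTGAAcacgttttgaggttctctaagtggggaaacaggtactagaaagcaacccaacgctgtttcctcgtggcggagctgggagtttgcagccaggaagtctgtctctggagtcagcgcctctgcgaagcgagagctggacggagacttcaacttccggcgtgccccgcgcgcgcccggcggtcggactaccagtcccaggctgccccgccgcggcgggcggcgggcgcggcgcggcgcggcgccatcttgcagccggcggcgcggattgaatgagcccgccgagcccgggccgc
TMPO: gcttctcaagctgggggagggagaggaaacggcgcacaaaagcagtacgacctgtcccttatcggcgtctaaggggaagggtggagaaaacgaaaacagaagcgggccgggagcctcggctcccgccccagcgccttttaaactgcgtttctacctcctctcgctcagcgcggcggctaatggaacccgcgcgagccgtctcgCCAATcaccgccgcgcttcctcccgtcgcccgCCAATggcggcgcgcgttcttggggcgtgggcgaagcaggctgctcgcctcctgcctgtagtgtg
The LBR window held none of these letters and was 38.3% G or C, against 52% to 73.3% in the other 6 members. The LMNB2 window held 1 cell cycle homology match, 246 bases before the start. The TMPO window held 2 CCAAT matches, 47 and 15 bases before the start. Among the members not shown, LMNA had 1 CCAAT and 1 E2F match, EMD had 2 CCAAT matches, and LMNB1 and BANF1 had none. The RefSeq start of BANF1 lies 275 bases inside the GENCODE gene, so its whole window falls within that gene. Of 35116 RefSeq promoter windows of the same length, 16.4% held a cell cycle homology match, 34.6% a CCAAT match and 2.74% an E2F match. No motif was shared by the 3 members shown.

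In DMSO-treated cells LMNA was highest in PC3, and LBR, TMPO and LMNB2 were highest in 22Rv1. Levels are CPM scaled with TMM factors over the 14 libraries. Since tags come from transcript ends and were not divided by length, levels are compared between samples and not between genes. LMNA was at 124, 141 and 103 CPM in the LNCaP libraries, 163, 152 and 187 in the 22Rv1 libraries and 473 in PC3 (exact 95% Poisson interval 429 to 519, counting error only). LMNA was therefore 3.84-fold higher in PC3 than the LNCaP mean and 2.82-fold higher than the 22Rv1 mean, with no replicate check in PC3. LMNB1 ran the other way, with 37.0 CPM in PC3 (interval 25.6 to 51.7) against 85.1 ± 8.09 in LNCaP and 99.5 ± 16.1 in 22Rv1.

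**Figure D1:**
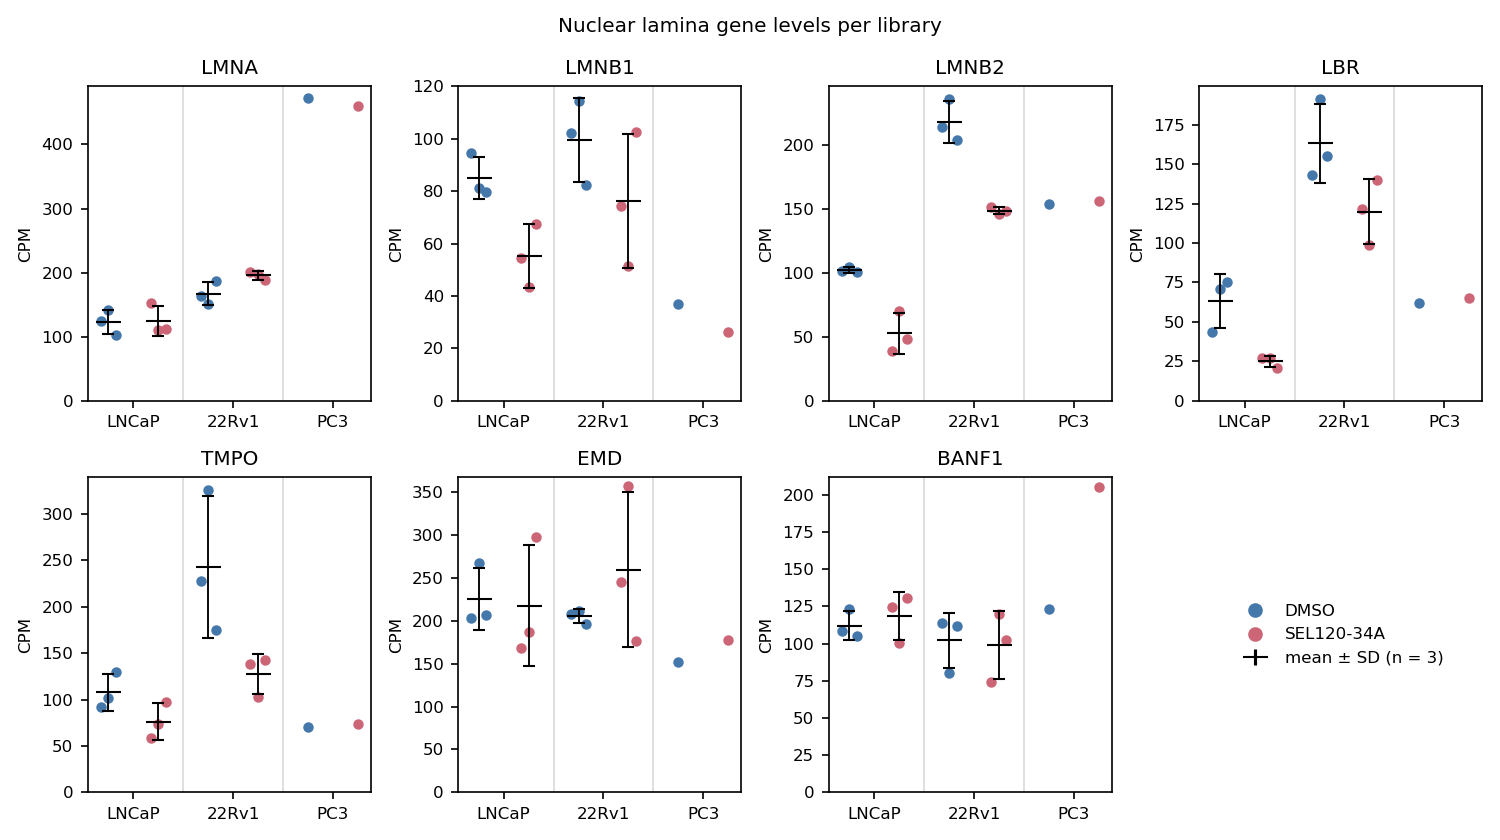
Level of each nuclear lamina gene per library in CPM, by cell line, for DMSO (blue) and SEL120-34A (red), with bars for the mean ± SD of 3 libraries in LNCaP and 22Rv1. LMNA is highest in PC3 (473 and 459 CPM), and the treated LBR libraries of LNCaP (21.1 to 27.3 CPM) are the lowest of the LBR panel.

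LBR was at 43.7, 70.7 and 75.5 CPM in LNCaP DMSO, 143, 191 and 155 in 22Rv1 DMSO and 62.1 in PC3 DMSO. The 22Rv1 libraries were above all others, and PC3 lay within the LNCaP range. TMPO was at 91.6, 102 and 130 CPM in LNCaP DMSO, 228, 326 and 175 in 22Rv1 DMSO and 70.8 in PC3 DMSO, again with every 22Rv1 library above every other. LMNB2 was at 101, 105 and 101 CPM in LNCaP DMSO, 214, 236 and 204 in 22Rv1 DMSO and 154 in PC3 DMSO, so that PC3 lay between the others. EMD was at 226 ± 35.9, 205 ± 8.37 and 152 CPM in LNCaP, 22Rv1 and PC3, and BANF1 at 112 ± 9.63, 102 ± 18.8 and 123 CPM. For EMD and BANF1 the LNCaP and 22Rv1 ranges overlapped.

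LMNA, LMNB2, LBR and TMPO were lower in LNCaP DMSO than in 22Rv1 DMSO by edgeR's quasi-likelihood test. The comparison is that of an enzalutamide-sensitive with an enzalutamide-resistant line before any inhibitor. The log2 difference (LNCaP minus 22Rv1) was -1.38 ± 0.20 for LBR (SE, n = 3 per line, adjusted p = 1.71e-07), lower in 3 of 3 LNCaP libraries than in every 22Rv1 library. It was -1.13 ± 0.19 for TMPO (adjusted p = 3.04e-06) and -1.08 ± 0.16 for LMNB2 (adjusted p = 3.14e-07), and in both genes the lines did not overlap. LMNA differed by -0.48 ± 0.16 (adjusted p = 0.0140), also without overlap. LMNB1 was at -0.19 ± 0.20 (adjusted p = 0.444), EMD at 0.12 ± 0.18 (adjusted p = 0.593) and BANF1 at 0.11 ± 0.18 (adjusted p = 0.642), and none of these passed the threshold of 0.05.

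Thus 4 of 7 members were lower in LNCaP and none was higher, in a comparison in which 25.0% of the 7086 tested genes were lower and 24.0% were higher. LMNA, LMNB2, LBR and TMPO were also the members whose LNCaP libraries all lay below the 22Rv1 libraries, which held for 28.9% of tested genes. LBR, LMNB2 and TMPO passed under every alternative that gave them a value. LMNA did not pass by the DESeq2 Wald test (adjusted p = 0.0538) or without the third DMSO library of LNCaP (log2 difference -0.36) or of 22Rv1 (-0.39), with adjusted p from 0.000434 to 0.114 over 20 alternatives. Of the proliferation markers, 11 of 21 were also lower in LNCaP DMSO and 2 were higher, and their part in the lamina difference was not tested.

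The lamins were then set against each other within a library, as the share of LMNA, LMNB1 and LMNB2 counts that came from LMNA. This share ignores library scaling, and it compares libraries rather than amounts of the 3 proteins. It was 38.8%, 43.2% and 36.5% in LNCaP DMSO and 34.0%, 30.2% and 39.5% in 22Rv1 DMSO, and the 2 lines overlapped (difference 4.88 percentage points, exact two-sided permutation p = 0.3, Benjamini-Hochberg adjusted p = 0.3 over 3 lamins). LMNB2 took 33.1% ± 2.09 of lamin counts in LNCaP and 44.9% ± 1.98 in 22Rv1 (difference -11.9 percentage points, exact permutation p = 0.1, adjusted p = 0.15), without overlap. The smallest p that 3 against 3 libraries can give is 0.1. In PC3 DMSO the LMNA share was 71.3% (exact Clopper-Pearson 95% interval 67.5% to 74.8%) and the LMNB1 share was 5.58%.

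**Figure D2:**
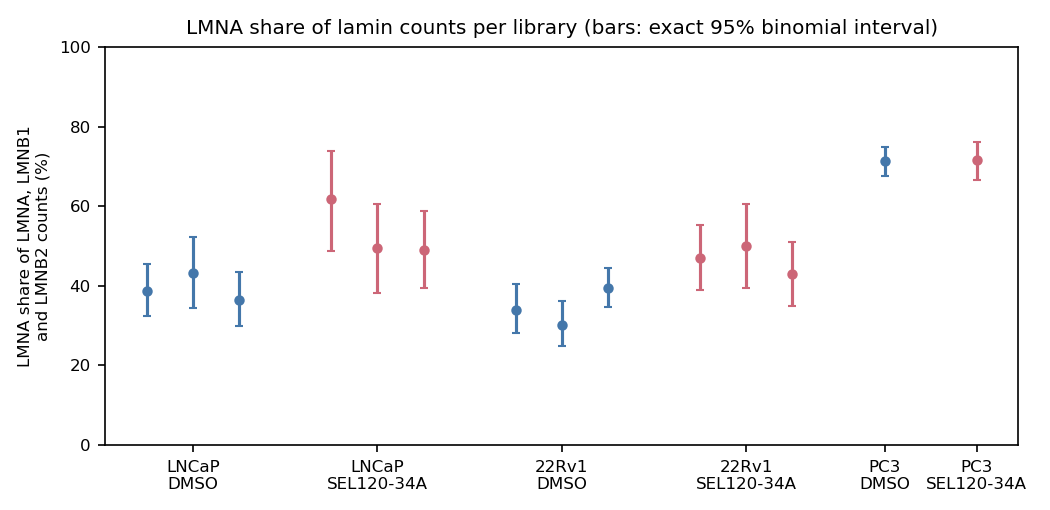
Share of LMNA among LMNA, LMNB1 and LMNB2 counts in each library, in percent, with exact 95% binomial intervals that cover counting error only, for DMSO (blue) and SEL120-34A (red). The treated libraries of LNCaP (49.1% to 61.9%) and of 22Rv1 (42.9% to 50%) lie above their DMSO libraries, and both PC3 libraries lie near 71%. The treated shares are a description, since LMNB2 was chosen for its lower value in treated cells.

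In SEL120-34A-treated LNCaP cells LBR stood at 39.8% of its DMSO mean, LMNB2 at 51.5%, LMNB1 at 64.9% and TMPO at 70.7%. LMNA, EMD and BANF1 stood at 96.4% to 106%. These values answer how the lamina genes of an androgen-dependent line behaved under the inhibitor, and they were known when the genes were chosen. LBR was at 43.7, 70.7 and 75.5 CPM with DMSO and 27.3, 27.1 and 21.1 CPM with SEL120-34A, from 31, 27 and 54 counts against 7, 10 and 10 counts. Every treated library was below every DMSO library, and the fitted log2 fold change was -1.30 ± 0.30 (SE, n = 3 per arm). In bulk RNA, fewer cells that express a gene and less RNA per cell cannot be told apart.

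Among the lamins of LNCaP, LMNB2 was at 101, 105 and 101 CPM with DMSO and 39.0, 70.5 and 48.6 CPM with SEL120-34A, a log2 fold change of -0.90 ± 0.22 with no overlap. LMNB1 was at 94.4, 81.2 and 79.7 CPM with DMSO and 54.6, 43.4 and 67.6 CPM when treated, a log2 fold change of -0.58 ± 0.24, again with no overlap. LMNA was at 124, 141 and 103 CPM with DMSO and 152, 111 and 112 CPM when treated, and the arms overlapped (0.05 ± 0.19). The A-type and B-type lamin genes differed in their values, and the LMNA share of lamin counts was 39.5% ± 3.43 with DMSO and 53.5% ± 7.32 with SEL120-34A. LMNB2 enters this share and was chosen for its lower value in treated cells. The share under treatment is therefore a description and carries no test.

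The LEM-domain genes of treated LNCaP cells stood at 70.7% (TMPO) and 96.4% (EMD) of their DMSO means. TMPO was at 91.6, 102 and 130 CPM with DMSO and 58.5, 73.2 and 97.1 CPM when treated, a log2 fold change of -0.43 ± 0.24 with overlapping arms. It was -0.24 without the third DMSO library and -0.66 without the third treated library. EMD was at 203, 267 and 207 CPM against 168, 187 and 298 CPM (0.04 ± 0.19), with 1 treated library above all DMSO libraries and 2 below. Their partner BANF1 was at 108, 123 and 105 CPM against 125, 100 and 131 CPM (0.13 ± 0.19).

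By edgeR, 2 of 7 members, LBR and LMNB2, were past the threshold as lower in treated LNCaP cells, where 0.776% of tested genes were lower. No member was past it as higher, where 1.99% of tested genes were. The arms of LMNB1, LMNB2 and LBR did not overlap, as for 10.7% of tested genes in that direction. Nothing is read from these counts, since the same contrast chose the group. The call for LBR was lost without the third DMSO library (log2 fold change -1.09) and without the third treated library (-1.15), and it was kept in 16 of 19 alternatives. It was also lost after thinning all libraries to the smallest total (-1.09). The call for LMNB2 was kept in 15 of 20 alternatives and was lost without the third DMSO library (-0.90) or without the first (-0.78) or the third (-0.79) treated library. LMNB2 also lost it by the DESeq2 Wald test (-0.89) and after thinning (-0.88). The median log2 fold change of the 7 members was -0.43, against 0.00076 for all tested genes.

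**Figure D3:**
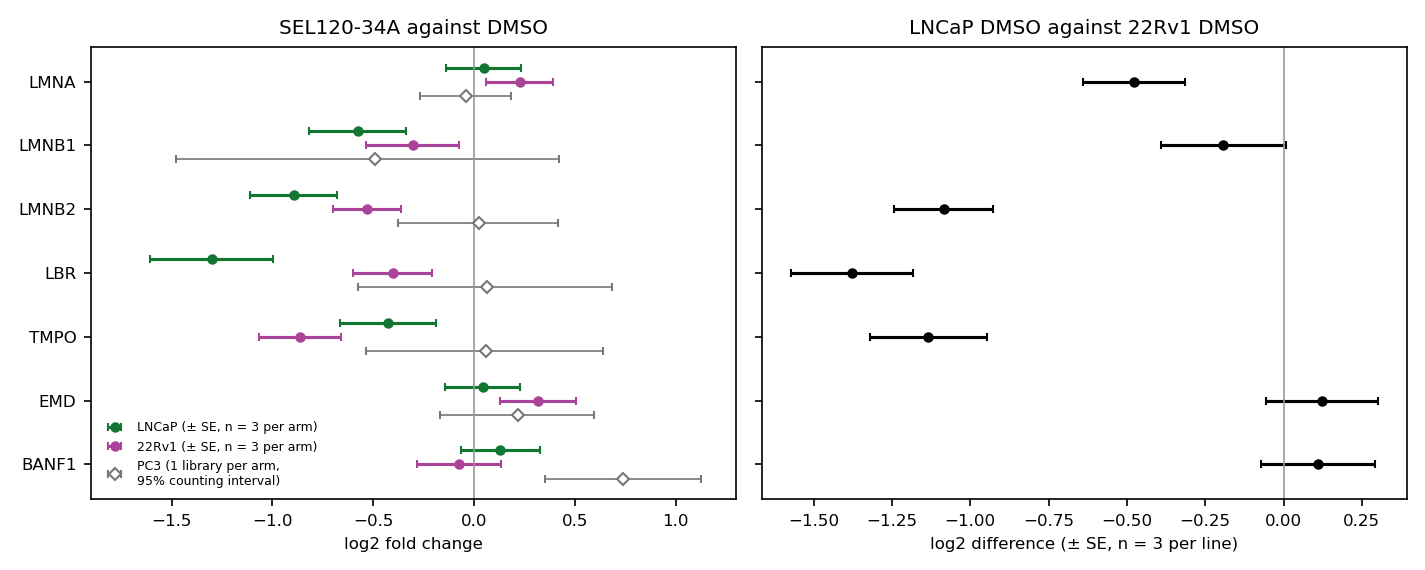
Left, log2 fold change of each member with SEL120-34A in LNCaP and 22Rv1 (± SE, n = 3 per arm) and in PC3 (log2 ratio of 1 library per arm, 95% counting interval). Right, log2 difference between LNCaP DMSO and 22Rv1 DMSO (± SE, n = 3 per line). The LBR point of LNCaP, at -1.30, is the lowest on the left, and LMNA, LMNB2, LBR and TMPO lie between -0.48 and -1.38 on the right.

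In SEL120-34A-treated 22Rv1 cells TMPO stood at 52.6% of its DMSO mean, LMNB2 at 68.2%, LBR at 73.5% and LMNB1 at 76.6%, and LMNA stood at 117%. TMPO was at 228, 326 and 175 CPM with DMSO and 138, 103 and 143 CPM when treated, with every treated library below every DMSO library and a log2 fold change of -0.86 ± 0.20. LMNB2 was at 214, 236 and 204 CPM against 152, 146 and 148 CPM (-0.53 ± 0.17), and LBR at 143, 191 and 155 CPM against 121, 98.7 and 140 CPM (-0.40 ± 0.20), both without overlap. The treated LMNB2 libraries of 22Rv1 were above all LNCaP libraries of either arm.

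LMNB1 in 22Rv1 was at 102, 114 and 82.3 CPM with DMSO and 74.4, 51.5 and 103 CPM when treated, so the arms overlapped (-0.31 ± 0.23). LMNA was at 163, 152 and 187 CPM against 201, 197 and 188 CPM, with each treated library above each DMSO library (0.23 ± 0.17). The LMNA share of lamin counts was 34.6% ± 4.69 with DMSO and 46.7% ± 3.59 with SEL120-34A, without overlap. As in LNCaP, this share is built in part from LMNB2, whose lower value helped choose the group. EMD was at 208, 212 and 196 CPM against 245, 356 and 177 CPM (0.32 ± 0.19), and BANF1 at 114, 80.5 and 112 CPM against 74.4, 120 and 103 CPM (-0.07 ± 0.21), both with overlap. Without the second treated library LMNB1 was at -0.13 and EMD at 0.07. Without the third treated library they were at -0.57 and 0.55. LMNB1 was also at -0.21 without the second DMSO library and -0.47 without the third.

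By edgeR, TMPO and LMNB2 were past the threshold as lower in treated 22Rv1 cells, where 1.55% of tested genes were lower, and no member was past it as higher, where 4.15% were. The arms of LMNB2, LBR and TMPO did not overlap, as for 10.5% of tested genes in that direction. As in LNCaP, nothing is read from these counts, since the group was chosen from this contrast too. LMNB2 was kept in only 8 of 20 alternatives and was lost without any single 22Rv1 library (log2 fold change -0.60 to -0.49) and without the second or the third DMSO library of LNCaP (-0.53 and -0.55). TMPO was kept in 16 of 20, and the losses included those without the second DMSO library (-0.61) or the second treated library (-0.75). The calls also depended on the tool: DESeq2 called 1 of the 7 members in 22Rv1 and limma called 0. The median over the 7 members was -0.31, against 0.0025 for all tested genes.

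The response of LBR in LNCaP was lower than that in 22Rv1 by 0.90 ± 0.37 on the log2 scale, and that of TMPO was higher by 0.44 ± 0.32. With single libraries left out, the TMPO difference ranged from 0.19 (without the second 22Rv1 DMSO library) to 0.68 (without the third). For the other members the difference lay between -0.36 (LMNB2) and 0.21 (BANF1). By edgeR 0 of 7 members were past the threshold for this difference, where 0.734% of tested genes were. At an unadjusted p under 0.05 there was 1 member, LBR, as for 11.4% of all tested genes, and DESeq2 and limma each called 0.

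PC3 had 1 library per arm, so its values have no replicate check. LMNA was at 473 CPM with DMSO and 459 with SEL120-34A, a log2 ratio of -0.04 (95% counting interval -0.27 to 0.18). LBR was at 62.1 and 64.9 CPM (0.06, interval -0.57 to 0.69), LMNB2 at 154 and 156 CPM (0.02, interval -0.38 to 0.42) and TMPO at 70.8 and 73.6 CPM (0.06, interval -0.54 to 0.64). The LBR interval lay above the LNCaP value of -1.30 and included the 22Rv1 value of -0.40. The LMNB2 interval lay above the values of both replicated lines, and the TMPO interval included the LNCaP value of -0.43 but not the 22Rv1 value of -0.86. These intervals cover counting error only, and the values set beside them carry their own error, as for LMNB2 in 22Rv1 (-0.53 ± 0.17). The LBR value of LNCaP and both LMNB2 values also helped choose the group. Whether PC3 responded differently from the other lines was not tested. LMNB1 was at 37.0 and 26.3 CPM, from 34 and 15 counts (-0.49, interval -1.48 to 0.42), and EMD at 152 and 177 CPM (0.22, interval -0.17 to 0.60). BANF1 was at 123 and 205 CPM, a log2 ratio of 0.74 (interval 0.35 to 1.12), and 5.81% of 8204 PC3 genes had a higher ratio. The LMNA share of lamin counts was 71.3% with DMSO and 71.6% with SEL120-34A.

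Other genes of the nuclear envelope were taken from lists of 75 genes, of which 65 were tested. The lists were written from general knowledge but with earlier results of these data known, as were the proliferation and senescence lists. Their counts of called genes may therefore not be independent of the data. In LNCaP none of the 65 passed edgeR's test in either direction with SEL120-34A, and 9 (6 of them lower) had an unadjusted p under 0.05, a share of 13.8% against 13.5% of all tested genes. DESeq2 and limma also called 0. The median of the 65 was 0.03. In 22Rv1 5 of 65 (7.69%) fell and 1 (1.54%) rose, where 1.55% of all tested genes fell and 4.15% rose. There, 14 of the 65 (12 of them lower) had an unadjusted p under 0.05 by edgeR. That share was 21.5%, against 19.1% of all tested genes. The median was -0.23, against 0.0025 for all tested genes.

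Of these 5, 4 encode nuclear pore proteins. NUP133, a subunit of the Y-shaped scaffold of the pore, fell by 1.47 ± 0.32 on the log2 scale (adjusted p = 0.00295), from 74.1 ± 14.7 to 25.8 ± 3.83 CPM. NUP98, which lines the transport channel, fell by 1.11 ± 0.32 (adjusted p = 0.0283), and NUP210, a membrane-spanning pore protein, fell by 0.65 ± 0.20 (adjusted p = 0.0496). POM121C fell by 1.06 ± 0.28 (adjusted p = 0.0154), but it has a near-identical copy, POM121, and reads of the pair may be split. ICMT, which methylates the farnesylated end of prelamin A and B-type lamins, fell by 0.74 ± 0.21 (adjusted p = 0.0263). NARF, a prelamin A tail-binding protein, rose by 0.95 ± 0.28 (adjusted p = 0.0340).

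Among the 30 pore genes tested, 4 (13.3%) fell and none rose in 22Rv1, where 1.55% of all tested genes fell and 4.15% rose, with a median of -0.47, and none passed in LNCaP, with a median of 0.01. For the difference between the lines 0 of the 65 envelope genes passed edgeR's test, 9 (13.8%, against 11.4% of all tested genes) had an unadjusted p under 0.05, and DESeq2 and limma called 0. The 22Rv1 counts depended on the tool: DESeq2 and limma each called 1 gene as lower, against 5 by edgeR.

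**Figure D4:**
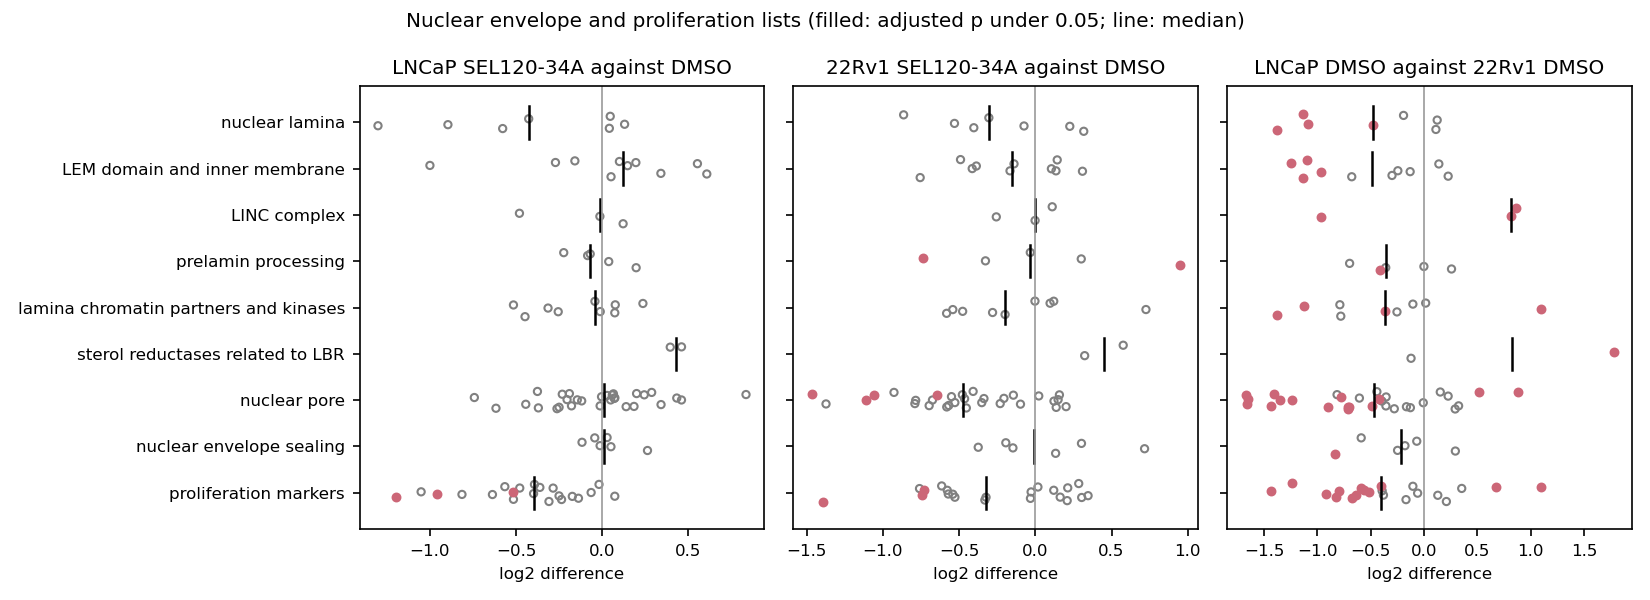
Log2 difference of every tested gene of each list with SEL120-34A in LNCaP (left) and 22Rv1 (middle) and between LNCaP DMSO and 22Rv1 DMSO (right), where a vertical line marks the median of a list. Filled points passed edgeR's test at an adjusted p under 0.05 (the nuclear lamina genes are drawn open in the first 2 panels, where they are a description), and 24 of 65 envelope genes are filled on the lower side at right. Of all tested genes, 25.0% were lower in that comparison.

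In DMSO-treated cells 24 of the 65 envelope genes (36.9%) were lower in LNCaP than in 22Rv1 and 6 (9.23%) were higher. Of all tested genes, 25.0% were lower and 24.0% were higher. At an unadjusted p under 0.05 by edgeR, in either direction, the share was 52.3% of envelope genes against 54.4% of all tested genes. The envelope median was -0.36 against -0.03 for all tested genes. Pore genes contributed 14 lower and 2 higher of 30. NUP107 was at 29.6 ± 9.81 CPM in LNCaP and 92.5 ± 10.5 in 22Rv1 (log2 difference -1.67 ± 0.25, adjusted p = 5.08e-07). NUP210 (-1.66 ± 0.20, adjusted p = 7.31e-09), the nuclear basket gene TPR (-1.41 ± 0.25, adjusted p = 1.24e-05) and NUP133 (-1.35 ± 0.27, adjusted p = 5.75e-05) were also lower. CBX5, which encodes the heterochromatin protein HP1 alpha that binds LBR, was lower by a log2 difference of -1.38 ± 0.27 (adjusted p = 3.68e-05).

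The largest of the 6 higher values was that of TM7SF2, which encodes the other sterol C14 reductase of the cell besides LBR. TM7SF2 was at 134, 139 and 101 CPM in LNCaP DMSO and 37.3, 39.3 and 32.2 CPM in 22Rv1 DMSO (1.78 ± 0.21, adjusted p = 2.73e-09). LBR and TM7SF2 therefore differed between the lines in opposite directions. With SEL120-34A TM7SF2 was at 157 ± 12.3 CPM in LNCaP (log2 fold change 0.40 ± 0.18, adjusted p = 0.299) and 53.7 ± 8.49 in 22Rv1 (0.58 ± 0.27, adjusted p = 0.233), neither past the threshold. The nesprin gene SYNE4 (0.86 ± 0.23, adjusted p = 0.00161) and SUN2 (0.82 ± 0.22, adjusted p = 0.00212), which link the nucleus to the cytoskeleton, were higher in LNCaP, while SUN1 was lower (-0.97 ± 0.24, adjusted p = 0.00109; chosen after its value was seen). CDK1, the mitotic kinase that phosphorylates lamins, was higher by 1.10 ± 0.21 (adjusted p = 2.57e-05), and the pore gene NUP93 by 0.51 ± 0.21 (adjusted p = 0.0413).

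The summed level of the proliferation markers was lower in treated cells of both replicated lines, although most single markers did not pass the test. This sum over 21 genes was 2841 to 3107 CPM in LNCaP DMSO and 1862 to 2448 CPM in treated LNCaP, and 3534 to 3924 against 3322 to 3481 CPM in 22Rv1, with no overlap in either line. By edgeR 3 of 21 (14.3%) fell and none rose in each line, where 0.776% of all tested genes fell in LNCaP and 1.55% in 22Rv1. DESeq2 called 2 in LNCaP and 1 in 22Rv1, and limma called 1 and 0. The medians were -0.39 and -0.32. CDC20, which activates the anaphase-promoting complex, fell in both, by 0.96 ± 0.20 in LNCaP (adjusted p = 0.00299) and 0.74 ± 0.18 in 22Rv1 (adjusted p = 0.00966). MKI67 was at 14.7 ± 3.96 and 13.1 ± 8.05 CPM in LNCaP (log2 fold change -0.06 ± 0.48, adjusted p = 0.979) and at 36.7 ± 11.6 and 13.2 ± 4.30 CPM in 22Rv1, where it fell by 1.39 ± 0.43 (adjusted p = 0.0464). These MKI67 values rest on a mean of 10.5 counts. The first treated LNCaP library (3.90 CPM) and the second treated 22Rv1 library (8.58 CPM) lay below their floors of 3 counts. TOP2A was at -0.02 ± 0.31 in LNCaP (adjusted p = 0.993) and 0.16 ± 0.25 in 22Rv1 (adjusted p = 0.793), and CDK1 at 0.07 ± 0.20 and 0.12 ± 0.26. In PC3 the summed level was 3109 CPM with DMSO and 3374 CPM with SEL120-34A. The part of proliferation in the lamina values was not tested.

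Of the senescence markers, 5 of 9 could be tested. In LNCaP CDKN1A, the gene of the cell cycle inhibitor p21, rose by 0.85 ± 0.19 (adjusted p = 0.00801), and the chromatin proteins HMGB2 and HMGB1, which are lost in senescent cells, fell by 1.13 ± 0.17 (adjusted p = 2.36e-05) and 0.51 ± 0.14 (adjusted p = 0.0344). The other 2 did not pass, with CDKN2A, which encodes p16, at -0.31 ± 0.23 and GLB1, the gene of senescence-associated beta-galactosidase, at 0.05 ± 0.30. Against 3 of 5 by edgeR in LNCaP, DESeq2 called 2 and limma 1. By edgeR 0.776% of all tested genes fell in LNCaP and 1.99% rose. In 22Rv1 none of the 5 passed edgeR's test, at an unadjusted p under 0.05 or adjusted, nor DESeq2's or limma's, and CDKN1A was at 0.68 ± 0.34 (adjusted p = 0.265). Beside these values, the LMNB1 fold change on the log2 scale was -0.58 in LNCaP and -0.31 in 22Rv1, and a link between them was not tested.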

How the data were processed

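The members and the gene lists were chosen with earlier results of these data known. The authors aligned reads to GRCh38.p13 and counted them with STARsolo, per the labels, and deposited raw counts per gene. Whether molecular identifiers were collapsed is not given in the sources used here. The deposited log2 values (log2 CPM of 9638 genes) equalled edgeR's TMM values with a prior count of 2 to within 4.97e-14, and were used for 1 alternative.

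Tests used edgeR 4.0.16 under R 4.3.3 (TMM, low-count filter, quasi-likelihood test, 4 group means over 12 LNCaP and 22Rv1 libraries, 7086 genes, 8 residual degrees of freedom, biological coefficient of variation 11.1%), with Benjamini-Hochberg adjustment over all tested genes and a threshold of 0.05. PC3, with 1 library per arm, was left out of the model. Within groups the chi-square per degree of freedom over genes was 1.54 to 1.89, so replicates differed by more than counting error. Totals set a floor of 3.3 to 12.19 CPM (3 counts). All 7 members were named, with envelope genes past the threshold and a mean of at least 20 counts (up to 5 per direction). The fit was tested on simulated counts. Alternatives were DESeq2 1.42.0 (size factors, Wald test), limma-trend 3.58.1, library totals, a filter of at least 10 counts in every library, no filter, thinning to 246063 counts, the replicate number as a block, and each library left out. Identifiers of all 7 members matched GENCODE release 44 with the same version. One luminal marker of the list is not reported here.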

Additional observations from a re-analysis of the deposited data

Results flagged for a closer look

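HMGB2, which encodes a chromatin protein of the senescence list, was flagged because its response to SEL120-34A differed between the lines. The fold change in LNCaP was lower than that in 22Rv1 by a log2 difference of -1.01 ± 0.23 (edgeR, adjusted p = 0.0251). HMGB2 was at 380 ± 10.8 CPM with DMSO and 164 ± 56.0 CPM with SEL120-34A in LNCaP (n = 3 per arm), and at 357 ± 50.9 and 323 ± 45.1 CPM in 22Rv1. The difference passed in 13 of 20 alternatives, with log2 differences from -1.30 to -0.83 and adjusted p from 0.000895 to 0.176. It did not pass by limma, after thinning, or without any one of 5 libraries (the third LNCaP DMSO, the first or second treated LNCaP, the second 22Rv1 DMSO or the first treated 22Rv1 library).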

How the results depend on the processing

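The log2 differences of LBR, LMNB2 and TMPO between untreated LNCaP and 22Rv1 cells kept their direction and passed under every alternative that gave a value. LMNA lost its call by the DESeq2 Wald test (-0.47), and over single libraries left out it ranged from -0.55 to -0.36. With library totals alone (median shift over all genes -0.21) EMD and BANF1 turned to -0.095 and -0.10. BANF1 ranged from -0.031 to 0.19 over single libraries left out. Library totals alone also moved the 22Rv1 response of LMNA to 0.077 and of LMNB2 to -0.68 (median shift -0.15). With at least 10 counts in every library LMNB2 in 22Rv1 was at -0.61, and LBR had no value. After thinning, LMNA was at 0.32 and LMNB1 at -0.29 in LNCaP, and LMNA at -0.0053 and LMNB2 at -0.65 in 22Rv1. The causes were not tested.

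Envelope genes lower in treated 22Rv1 cells numbered 3 with at least 10 counts in every library, 2 after thinning, and 1 each with DESeq2 and limma, against 5, and the 1 higher gene became 0 under these 4, library totals and no filter. Those lower in untreated LNCaP numbered 12 with at least 10 counts and 15 after thinning, against 24. The stricter filter leaves low-count genes untested and thinning lowers the counts, so the numbers under both may rest on fewer tested genes. Over single libraries left out, the counts ranged from 0 to 1 (lower in LNCaP), 2 to 6 (lower in 22Rv1), 0 to 1 (higher in 22Rv1) and 0 to 1 (difference between lines). Whether replicate numbers pair the libraries was not settled. Same-numbered DMSO and treated libraries correlated at -0.048 to 0.12 in LNCaP and -0.013 to 0.033 in 22Rv1. The highest correlation with another number was -0.016 to 0.070 in LNCaP and 0.0049 to 0.045 in 22Rv1. Correlations this low between shallow libraries cannot show that pairing was absent. With the replicate block 1 envelope gene passed for the difference between lines, against 0. Treated libraries were shallower, and LBR rested on 7 to 10 counts per treated LNCaP library.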

Other observations

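Across the 12 LNCaP and 22Rv1 libraries, with log2 CPM centred within each line, LMNB2 varied most like LBR among the members (Pearson r = 0.83), and LMNB1 most like TMPO (r = 0.74). LMNA ran against TMPO (r = -0.77). These libraries share their treatment arms and depth, so the values describe the libraries and carry no test.

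Among 3885 genes with a mean of at least 20 counts, the genes nearest to LMNB1 were CCNA2 (r = 0.91), the cyclin of S phase and G2, SMC4 (0.90), a condensin subunit, and PAWR (0.90). Nearest to LMNB2 were HMGN2 (0.92), a nucleosome-binding protein, DDX54 (0.89) and H2AX (0.89). Nearest to LBR were DAZAP1 (0.89), RBBP4 (0.87), a histone-binding protein, and SRPRB (0.85). Nearest to TMPO were MIR1244-2 (0.91), MAPK6 (0.91) and the cohesin subunit SMC3 (0.90). LMNA was nearest to BCL7C (0.91), APH1A (0.89) and FBXW5 (0.87), EMD to UBE2B (0.93), RPS24P19 (0.90) and RPL3P4 (0.88), and BANF1 to GALNT2 (0.88), CLTA (0.87) and METTL21A (0.85). RPS24P19 and RPL3P4 are pseudogenes and MIR1244-2 is one of several near-identical loci, so their counts are uncertain.

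The members differed in how far replicates departed from counting error. The chi-square per degree of freedom within groups (8 degrees of freedom) was 5.27 for TMPO and 5.10 for EMD, and lay between 0.60 (LMNB2) and 1.61 (LBR) for the other 5. The widest spread of TMPO was among the 22Rv1 DMSO libraries, at 175 to 326 CPM, and that of EMD among the treated 22Rv1 libraries, at 177 to 356 CPM.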
